A study of Mus musculus with 2 samples.

Results

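The genes described here encode 10 cytokines by which helper T cells act on other cells: Il2, Il4, Il5, Il13, Il17a, Il17f, Il21, Il22, Ifng and Csf2. They were chosen by name, and all 10 were found among the 24346 gene symbols listed for both libraries. Regulatory T cells (Tregs) were obtained from Foxp3-DTR-GFP (FDG) mice, whose endogenous Foxp3 locus drives a GFP and diphtheria toxin receptor cassette, so that GFP marks cells expressing Foxp3. All mice had received 50 μg of bleomycin (BLM) into the trachea, at 10 to 16 weeks of age by the methods of the study, and GFP+CD4+ cells of both spleen and lung were sorted on day 15. The cells of 3 mice were pooled into 1 RNA-seq library for each tissue, and both tissues came from BLM-treated mice. There is thus no estimate of the variation between mice, no difference below was tested, and the effect of BLM itself cannot be read from these libraries.

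Helper T cells are grouped by the cytokines they secrete. Th1 cells secrete interferon-γ (Ifng), which activates macrophages, Th2 cells secrete IL-4, IL-5 and IL-13, which act on B cells, eosinophils and tissue cells, and Th17 cells secrete IL-17A, IL-17F and IL-22, which act on epithelium and stroma and draw in neutrophils. IL-2 is the growth factor that Tregs need but make little of, because Foxp3 represses its gene, IL-21 is a cytokine of follicular helper and Th17 cells, and Csf2 encodes GM-CSF, which supports myeloid cells and alveolar macrophages. Tregs in tissues can take up parts of the programme of the helper cells they restrain, and in fibrosing lung IL-4, IL-13 and IL-17A are known for promoting scar formation.

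The genes lie in 4 clusters of the mm10 (GRCm38) genome. On chromosome 11, Il4 (53612460 to 53618665), Il13 (53631323 to 53634702) and Il5 (53720794 to 53725103) are neighbours, with Rad50 between Il13 and Il5, and Csf2 (54247270 to 54249899) lies 522 kb beyond Il5. Il17a (20730905 to 20734496) and Il17f (20777146 to 20785274) adjoin each other on chromosome 1 with a gap of 42.6 kb. Il2 (37120713 to 37125954) and Il21 (37222759 to 37232636) are on chromosome 3, and Il22 (118204584 to 118210047) and Ifng (118441046 to 118445894) on chromosome 10. The 200 bases before the transcription start are printed for the genes that were listed in lung alone, for Il4 as a neighbour of Il5, and for Ifng as the gene highest in both tissues. They were taken from RefSeq promoter windows of GRCm38.p6, which held all 10 genes, and run 5′ to 3′ toward the start. That of Il17f precedes a transcript start inside the outer end of the gene.
Il17a, chr1:20730705-20730904, plus strand: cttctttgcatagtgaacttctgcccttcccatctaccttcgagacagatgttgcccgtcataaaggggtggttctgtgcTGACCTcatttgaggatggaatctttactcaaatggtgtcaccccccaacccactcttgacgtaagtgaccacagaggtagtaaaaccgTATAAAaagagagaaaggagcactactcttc
Il17f, chr1:20784271-20784470, minus strand: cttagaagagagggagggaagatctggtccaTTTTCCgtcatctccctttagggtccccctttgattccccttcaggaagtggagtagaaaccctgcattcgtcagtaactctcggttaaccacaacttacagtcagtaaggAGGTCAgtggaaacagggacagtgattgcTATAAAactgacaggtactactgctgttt
Il5, chr11:53720594-53720793, plus strand: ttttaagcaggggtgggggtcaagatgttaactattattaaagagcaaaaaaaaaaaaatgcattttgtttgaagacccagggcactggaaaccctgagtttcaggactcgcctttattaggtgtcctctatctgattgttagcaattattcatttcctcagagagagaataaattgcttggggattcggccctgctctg
Il4, chr11:53618666-53618865, minus strand: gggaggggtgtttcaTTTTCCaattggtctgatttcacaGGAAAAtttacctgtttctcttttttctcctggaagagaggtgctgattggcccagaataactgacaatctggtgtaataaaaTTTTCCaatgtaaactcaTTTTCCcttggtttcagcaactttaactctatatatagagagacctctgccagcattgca
Ifng, chr10:118440846-118441045, plus strand: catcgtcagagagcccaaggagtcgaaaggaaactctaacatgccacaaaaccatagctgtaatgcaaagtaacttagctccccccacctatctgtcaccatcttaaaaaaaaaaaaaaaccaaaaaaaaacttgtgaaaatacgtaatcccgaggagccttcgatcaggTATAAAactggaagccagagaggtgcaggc

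Capitals mark matches, on either strand, of TATAAA, a core promoter element, GGAAAA, the core of sites for NFAT, TGANTCA, the AP-1 site, GATAA for GATA3 and its relatives, and AGGTCA, which several nuclear receptors bind. In the 10 windows no match overlapped one of another motif. AGGTCA stood in the windows of Il17a and Il17f and in no other of the 10, against 11.4% of 32851 windows of all genes. TATAAA stood in 6 of the 10 windows, Il17a, Il17f and Ifng among them, against 9.96% of all, and in these 3 it began 29 to 31 bases before the start. GGAAAA stood in 5, with 4 copies before Il4, against 16.4% of all. TGANTCA was in none of the 10 and GATAA in the window of Il13 alone, against 5.48% and 18.1% of all. These are matches of letters, and no binding was measured.

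The deposited values were FPKM, reads of a gene scaled to its length and to the library, so that levels can be compared between genes. One read at an effective length of 1 kb was worth 0.0964 FPKM (spleen) or 0.0849 FPKM (lung), a scale from which the reads behind each value were estimated. The estimates of Il2, Il5, Il17a, Il17f and Csf2 came within 0.1 of whole reads, after the ends of transcripts had been set with the reads of Il2, Il5 and Csf2 in view. Those of Ifng were off by 0.353 in spleen and 0.342 in lung, and those of Il4 and Il21, which have 2 transcripts each, by -0.302 (Il4, lung) and -0.420 (Il21, spleen) at most. The intervals given below are exact 95% Poisson or conditional binomial intervals of these reads. They cover counting error alone, because cDNA was amplified by PCR without molecular identifiers and mice were not replicated.

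The sort was checked first. Cd3e, a chain of the T cell receptor complex, had 513 FPKM in spleen and 369 FPKM in lung. Cd4 and Foxp3 were present in both, Foxp3 with 18.7 and 41.8 FPKM. Of 10 core Treg genes, 5 were higher and 5 lower in lung. By more than 2-fold, 3 were higher, Foxp3 among them, and 1 was lower, Lrrc32 (69.4 and 30.4 FPKM). All 9 listed genes of a T cell list were within 2-fold between the libraries. RNA of other cells was present too, above all in lung, where the summed level of 10 macrophage genes was 31805 FPKM against 679 FPKM in spleen. Lyz2 alone held 24947 and 376 FPKM of these sums. Of the 10 macrophage genes, 7 were more than 2-fold higher in lung. Others differed little, such as Csf1r with 43.8 FPKM in spleen and 50.1 FPKM in lung. In sorted bulk RNA, more cells that express a gene and more RNA per cell cannot be told apart.

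Of the 10 cytokine genes, 5 were above 0 in spleen and 7 in lung. Ratios of lung to spleen were taken with a floor of 0.1 FPKM, to which lower values were raised. By that ratio 3 genes, Il5, Il17a and Il17f, were more than 20-fold higher in lung, the fold used by the study, against 1.62% of all symbols, and 0 were more than 20-fold lower, against 1.17%. All 3 were at 0 in spleen, so that their ratios depended on the floor. The count was 1, Il5, with 3 estimated reads as the least value in each library and 0 with a floor or a pseudocount of 1 FPKM. More than 2-fold higher were 5 genes, Il4 and Csf2 in addition, against 11.0% of all symbols, and more than 2-fold lower were Il2 and Il21, against 11.7%. Nearer in level to the cytokine genes were the 6140 symbols with 1 to 15 FPKM in whichever library was higher, a range that holds 7 of the 10. Of these, 4.51% exceeded 20-fold and 24.2% exceeded 2-fold toward lung, and 3.79% and 23.2% did so toward spleen. The median log2 ratio of the 10 genes was 0.98, and 0.89 with 3 estimated reads as the least value, since a count of 0 allows up to 3. Over all symbols it was 0.00.

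**Figure D1:**
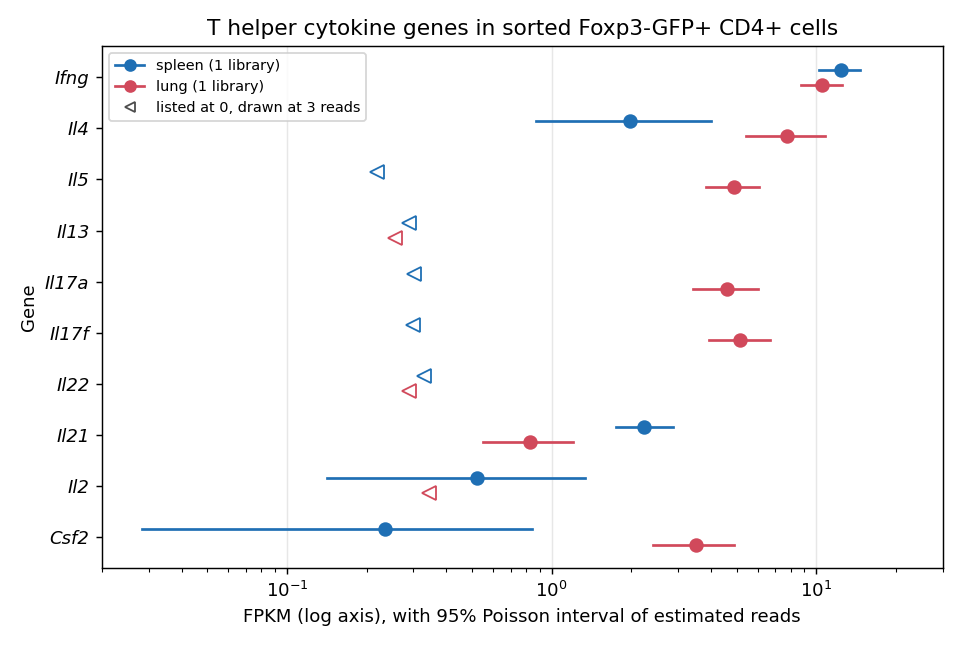
FPKM of the 10 cytokine genes in the splenic (blue) and lung (red) libraries on a log axis, with 95% Poisson intervals of the estimated reads as bars and open triangles at the level of 3 reads where a gene was listed at 0. Il5, Il17a and Il17f have lung levels of 4.59 to 5.17 FPKM and no splenic value, while the 2 intervals of Ifng overlap.

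Ifng was the most highly expressed of the 10 genes in both tissues. It was at 12.4 FPKM in spleen (95% interval 10.3 to 14.7) and at 10.5 FPKM in lung (8.75 to 12.5), about 128 and 124 reads. The ratio of lung to spleen was 0.853, with an interval of 0.661 to 1.10, so a difference was not detectable at this depth. Rescaling both libraries to TPM brought its log2 ratio from -0.23 to -0.66, beyond that interval, and the median of genes with at least 1 FPKM in both from 0.02 to -0.42, so that Ifng stood about as far below the median as before. Ifng ranked 5924 among all symbols in spleen and 6232 in lung. The genes nearest to it in both levels were Rad51d (12.4 and 10.5 FPKM in spleen and lung), Arhgap12 (12.4 and 10.6) and Zhx1 (12.3 and 10.5), a likeness over 2 libraries only. Other cytokine genes made up more of the lung total. Ifng held 71.3% of the summed FPKM of the 10 genes in spleen and 28.3% in lung, and the other 9 summed to 4.98 FPKM in spleen and to 26.7 FPKM in lung.

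The Th2 cytokine genes differed among themselves, although they share a locus. Il4 was at 1.98 FPKM in spleen (0.873 to 3.98, about 8 reads) and at 7.73 FPKM in lung (5.43 to 10.8, about 35 reads). It was therefore 3.89-fold higher in lung, with an interval of 1.76 to 9.62, and the splenic and lung intervals did not overlap. Il5, the growth factor of eosinophils, was listed at 0 in spleen and at 4.87 FPKM in lung (3.84 to 6.10), from 76 reads. With 0 splenic reads, up to 0.218 FPKM could have gone undetected. The lung value was 22.3 times this limit, and with the counting error of both libraries the interval of the ratio began at 17.7. Il13, which lies between them and acts on epithelium and fibroblasts, was listed at 0 in both libraries, with limits of 0.290 FPKM (spleen) and 0.255 FPKM (lung). Rad50, the DNA repair gene inside this locus, had 13.3 FPKM in spleen and 17.2 FPKM in lung. Kif3a, a kinesin gene on the other side of Il4, was at 1.55 and 6.01 FPKM, 3.87-fold higher in lung.

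The adjoining genes of the IL-17 pair were listed in lung alone and at similar levels. Il17a was at 0 in spleen and at 4.59 FPKM in lung (3.43 to 6.02), from 52 reads. The lung value was 15.3 times the splenic limit of 0.301 FPKM, and the interval of the ratio began at 11.98. Il17f was at 0 in spleen and at 5.17 FPKM in lung (3.94 to 6.67), from 59 reads, 17.3 times its splenic limit of 0.298 FPKM, with an interval of the ratio that began at 13.7. The lung intervals of the pair overlapped. Il5, Il17a and Il17f shared a lung value of at least 1 FPKM with a splenic value of 0, which 1.35% of all symbols had, and 1.57% showed the opposite pattern. Mcm3, the replication gene on the other side of Il17f, had 26.0 and 25.6 FPKM. Il22 did not accompany the pair. It was listed at 0 in both libraries, as was its close copy Iltifb, with which it can share reads, and its limits were 0.329 FPKM (spleen) and 0.290 FPKM (lung). In all, 34.6% of symbols were at 0 in both libraries.

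**Figure D2:**
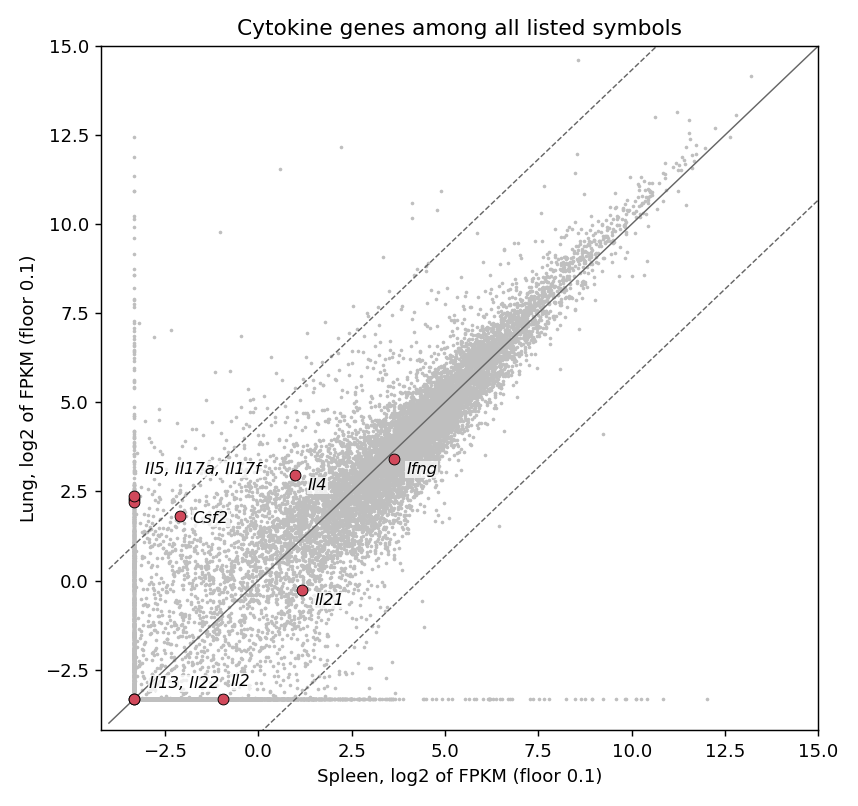
Each gray point is a gene symbol by its log2 FPKM in spleen (x) and lung (y), with values under 0.1 FPKM set to 0.1, a solid line of equality, dashed lines at 20-fold and the 10 cytokine genes in red. Il5, Il17a and Il17f lie above the upper dashed line at the splenic floor, Csf2 and Il4 lie between that line and equality, and Il13 and Il22 share the lower left corner.

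Csf2 was at 0.234 FPKM in spleen (0.0283 to 0.845) and at 3.50 FPKM in lung (2.43 to 4.89), which rest on 2 and 34 reads. The ratio was 15.0, with a wide interval of 3.84 to 129. Its neighbour Il3, which encodes another cytokine for myeloid precursors, was listed at 0 in both libraries. Csf2 and Il21 each overlap an unlisted non-coding gene of the annotation (Gm12223 and Gm36168), and without strand their reads cannot be told apart.

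Il2 and Il21 had lower values in lung. Il2 was at 0.523 FPKM in spleen (0.142 to 1.33), from 4 reads, and at 0 in lung, where the limit was 0.344 FPKM. The interval of its ratio of lung to spleen ran from 0 to 1.33, so a difference was not detectable at this depth. Il21 was at 2.24 FPKM in spleen and 0.825 FPKM in lung, 2.72-fold lower in lung. How firm this is depends on the transcript that was counted. With the RefSeq transcript of 3072 nt the values rest on about 67 and 28 reads, and the ratio of spleen to lung has an interval of 1.72 to 4.39. With that of 529 nt they rest on about 7 and 3 reads, and the interval of 0.605 to 15.9 includes 1. The neighbour of Il21 away from Il2, the centrin gene Cetn4, had 0.567 FPKM in spleen and 2.995 FPKM in lung.

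In lung the genes were ordered Ifng, Il4, Il17f, Il5, Il17a, Csf2 and Il21. Only the last step was wider than counting error, since the intervals of all other neighbours in this order overlapped. In spleen the order was Ifng, Il21, Il4, Il2 and Csf2, and Ifng alone stood apart from its neighbour.

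Among 19 other cytokine genes of T cells, 4 were more than 2-fold higher in lung and 1 more than 2-fold lower, with a median log2 ratio of 0.00. By the higher of both libraries, the leading genes were Ltb (600 FPKM in spleen and 535 in lung), which encodes lymphotoxin β, Il16 (127 and 55.9) and Osm (20.04 and 71.7), the gene of oncostatin M. Il6, which promotes Th17 differentiation, was listed at 0 in spleen and at 13.9 FPKM in lung, 33.1 times its splenic limit. Whether T cells or other cells in the lung library were its source was not tested. Il12a and Ebi3, whose products pair as the suppressive cytokine IL-35, were at 1.27 and 24.4 FPKM in spleen and at 8.44 and 49.9 FPKM in lung. Il10 had 8.17 and 14.8 FPKM, and Il9, Il24 and Il31 were at 0 in both.

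Genes that direct or accompany each helper programme were compared by list. Of 13 genes of the Th17 list, 8 were more than 2-fold higher in lung and 1 more than 2-fold lower, with a median log2 ratio of 1.16. Il23r, the receptor that sustains Th17 cells, was at 0.296 FPKM in spleen and 6.37 FPKM in lung, from about 7 and 171 reads, a ratio of 21.5 (10.2 to 54.3). By the higher of both libraries, Batf (117 FPKM in spleen and 244 in lung), an AP-1 family factor of Th17 and tissue T cells, Tmem176b (18.05 and 126) and Stat3 (89.3 and 108) led this list. The part of other cells, macrophages among them, in the values of this list was not tested. Of 13 genes of the Th2 list, 6 were more than 2-fold higher and 0 more than 2-fold lower, with a median of 0.89. Gata3, the defining Th2 factor, which Tregs also express, had 69.1 FPKM in spleen and 77.3 FPKM in lung. Stat6, which signals for IL-4, had 126 and 83.8, whereas Il1rl1, the IL-33 receptor gene, had 2.46 and 25.8, a ratio of 10.5 (8.15 to 13.9). Ccr8, a chemokine receptor of Th2 cells and tissue Tregs, had 67.2 and 280.0 FPKM.

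The Th1 list was closer to even, as Ifng was. Of its 12 genes, 3 were more than 2-fold higher and 1 more than 2-fold lower, with a median of 0.29. Tbx21, which encodes the Th1 factor T-bet, had 8.35 FPKM in spleen and 7.83 FPKM in lung, Stat4 74.2 and 81.8, and Cxcr3 82.8 and 99.2. Of 8 genes of the follicular helper list, 2 were higher and 2 lower by more than 2-fold, with a median of 0.16. Bcl6, the factor of follicular helper cells, had 5.27 FPKM in spleen and 2.48 FPKM in lung, whereas Pdcd1 had 73.2 and 378, Icos 59.2 and 248, and Sh2d1a 157 and 189.

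**Figure D3:**
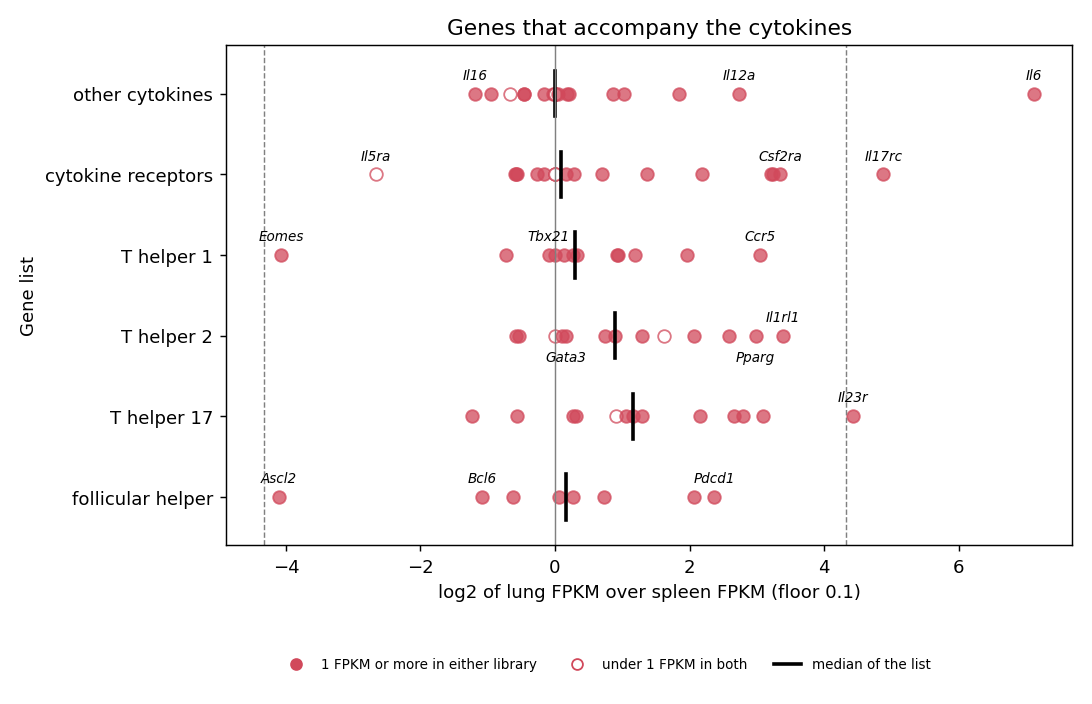
Log2 ratio of lung to splenic FPKM, with a floor of 0.1 FPKM, for each gene (points, open where under 1 FPKM in both libraries) of 6 lists of genes that accompany the cytokines, with the list's median as a bar and dashed lines at 20-fold. The medians of the Th17 and Th2 lists are 1.16 and 0.89, and those of the other lists lie between 0.00 and 0.29.

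Of 18 receptor genes, 6 were more than 2-fold higher in lung and 1 more than 2-fold lower, with a median log2 ratio of 0.08. Il2rg, the shared γ chain of the IL-2, IL-4 and IL-21 receptors, had 1375 FPKM in spleen and 1542 FPKM in lung, Ifngr1 269 and 696, Il2rb 300.4 and 249, Il21r 149 and 100.2, and Il4ra 53.3 and 47.7. Csf2ra and Csf2rb, the GM-CSF receptor chains of myeloid cells, were at 5.35 and 1.80 FPKM in spleen and at 54.5 and 16.9 FPKM in lung, beside macrophage genes of which all 10 were higher in lung, and the part of macrophages in them was not tested. Il5ra, the IL-5 receptor chain of eosinophils and B cells, had 0.634 FPKM in spleen and 0.0762 FPKM in lung. Il17rc, a chain of the IL-17 receptor of stromal cells, was at 0.0467 FPKM in spleen, from about 1 read, and at 2.95 FPKM in lung. Il17ra, another chain of the IL-17 receptor, was far higher and went the other way, with 61.6 FPKM in spleen and 41.6 FPKM in lung. Il13ra1, a chain of the IL-4 and IL-13 receptor of other cells, had 2.17 and 9.88 FPKM. Il22ra1, the epithelial IL-22 receptor chain, and Il13ra2, a decoy receptor, were at 0 in both libraries.

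Other cells that make these cytokines were looked for by their markers, although the gate for GFP and CD4 should remove cells that lack either. Of 10 genes of group 2 innate lymphoid cells (ILC2), which secrete IL-5 and IL-13, 7 were more than 2-fold higher in lung, and their sum was 192 FPKM in spleen and 607 FPKM in lung. Tissue Tregs express several of them, Il1rl1, Gata3, Klrg1 and Ccr8 among them. Of those more particular to ILC2, Nmur1 had 0.191 FPKM in spleen and 2.02 FPKM in lung, Calca 0.144 and 5.72, and Rxrg 0.591 and 0. The splenic values rest on few reads, about 2 for Nmur1, 1 for Calca and 10 for Rxrg. Of 8 genes of group 3 innate lymphoid cells, which secrete IL-17 and IL-22, 4 were more than 2-fold higher in lung, with sums of 166 and 388 FPKM, and Ncr1 had 2.69 FPKM in spleen and was at 0 in lung. The highest of them were Cd81 (132 and 164 FPKM), Tmem176b and Tmem176a (9.47 and 80.6). Of 9 genes for γδ T cells, a major innate source of IL-17A in lung, 5 were listed and the genes of the receptor chains were not among them. Their sums were 7.23 FPKM in spleen and 6.65 in lung. Blk held 6.595 FPKM of the splenic sum and 2.89 FPKM of the lung sum. The likeness of the sums therefore does not show that the other listed genes were even between the libraries. Cd163l1, a scavenger receptor of IL-17-producing γδ T cells, was at 0.0297 FPKM in spleen, from 1 read, and at 3.40 FPKM in lung, from 130 reads, a ratio with an interval of 20.2 to 4557. Zbtb16, a factor of these cells, was at 0.334 FPKM in spleen, from about 17 reads, and at 0 in lung. Sox13, another, was at 0.0290 FPKM in spleen, from about 1 read, and at 0 in lung. That splenic value was under the lung limit of 0.0731 FPKM, so a difference in Sox13 was not detectable.
The 8 genes of natural killer cells, which secrete interferon-γ, summed to 39.1 FPKM in spleen and 51.3 in lung. Of these, 1 was more than 2-fold higher in lung, Klrd1 (6.74 and 13.7 FPKM). More than 2-fold lower were 2, Ncr1 (2.69 and 0) and Eomes (1.68 and 0.0246). Klra8 was practically absent from both libraries. The 5 genes of CD8 T cells summed to 32.2 and 113 FPKM, Cd8b1 being highest at 19.9 and 74.8. Of 9 mast cell and basophil genes, which could bring Il4, 1 was more than 2-fold higher in lung, Hdc (2.201 and 11.8 FPKM). The 3 that were more than 2-fold lower were Cpa3 (0.620 and 0.0682), Ms4a2 (0.608 and 0.0383) and Tpsb2 (0.329 and 0), all under 1 FPKM. The median log2 ratio of this list was -0.18. Mcpt8 and Mcpt4 were at 0 in both libraries and Gata2 at 0 in lung. The sums were 4.99 and 13.5 FPKM, and Hdc was the highest gene in both. The 8 eosinophil genes summed to 22.1 FPKM in spleen and 236 in lung, of which Ear2 held 9.24 and 205. Ear1 (0 and 13.6), Siglecf (0.0438 and 8.06) and Alox15 (0.350 and 8.82), all also expressed by alveolar or other macrophages, were over 20-fold higher in lung too, while the defining Epx was at 0 in both, Prg2 at 0 in lung and Ccr3 at 10.6 and 0.554. The 5 listed B cell genes were lower in lung, with sums of 239 and 123 FPKM. How far any of these cells contributed to the cytokine values was not tested.

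**Figure D4:**
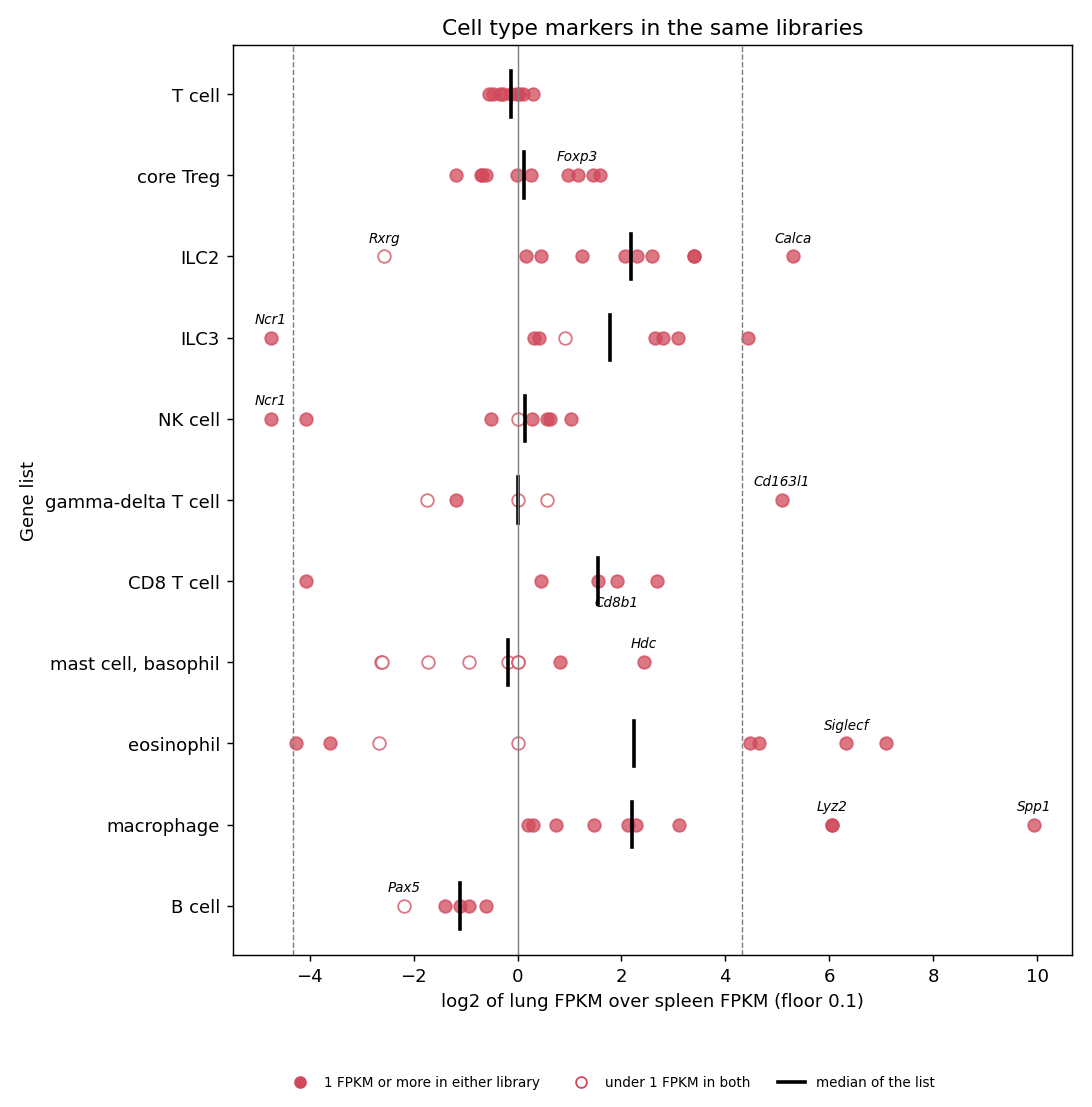
Log2 ratio of lung to splenic FPKM, with a floor of 0.1 FPKM, for the genes of 11 cell type marker lists, drawn as in the plot of the genes that accompany the cytokines. The T cell list has its median at -0.13 and the core Treg list at 0.12, while those of ILC2, ILC3, CD8 T cell, eosinophil and macrophage genes lie between 1.56 and 2.23.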

How the data were processed

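GFP+CD4+ cells pooled from 3 mice per tissue gave 1 RNA-seq library of spleen and 1 of lung, which were assigned to tissues by their labels. Per the submitters' processing notes, the deposited FPKM were made by the authors with Cuffdiff 2.2.1, after alignment of 75-base reads to mm10 (TopHat2 2.1.1 with Bowtie2 2.2.8, SAMtools 0.1.18). The annotation and any scaling between libraries are not given in the sources used here. The FPKM summed to 599633 in spleen and 808853 in lung, and 39.2% and 43.7% of symbols were at 0.

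Reads were estimated as FPKM times effective length. Lengths came from GENCODE M21 transcripts tied to RefSeq, found for 23016 symbols, and for members with 1 such transcript both ends were moved to those of RefSeq, a step chosen after it was seen to bring the reads of Il2, Il5 and Csf2 near whole numbers. Effective lengths assumed fragments of mean 200 and SD 80, at least 73 long. The value of 1 read was the product most often shared, within 1%, by transcripts of at least 1500 nt. A lower product was taken instead where enough transcripts shared it. The median was taken over the transcripts that shared the product (210 in spleen, 127 in lung). Among genes with 1 to 10 reads and a single transcript length, short ones left out, 73.2% in spleen and 75.5% in lung lay within 0.1 of a whole number. Estimated reads summed to 9648676 and 12634526.

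Ratios used a floor of 0.1 FPKM. With 1 library per tissue no test was made. The steps were tested on simulated data. Genes named by rule were the 10 cytokine genes, Foxp3, Cd4 and Cd3e, genome neighbours, the 3 genes nearest to the highest member and, from 17 lists, the 3 highest genes, those over 20-fold with at least 1 FPKM, and receptors or defining regulators of members. Some of these are not reported here, and other list genes were named after their values were seen. Members and lists were chosen with earlier results of these data known. Python 3.11.15, numpy 2.4.6, scipy 1.17.1 and matplotlib 3.10.9 were used.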

Additional observations from a re-analysis of the deposited data

How the results depend on the processing

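With 9 alternatives, the count of 5 cytokine genes more than 2-fold higher in lung stayed at 5. The count over 20-fold higher, 3 as reported, was 0 with a floor or a pseudocount of 1 FPKM and 1, Il5, with at least 3 estimated reads in each library. The count over 20-fold lower was 1, Il2, with a floor of 0.01 FPKM. The count over 2-fold lower, 2 as reported, was 1 with a floor of 1 FPKM, without genes under 1 FPKM in both libraries or with at least 3 reads, and 0 with a pseudocount of 1 FPKM. Over the 7 genes that reached 1 FPKM in either tissue, the median log2 ratio was 3.90 (0.98 for all 10), a filter that keeps genes through the tissue where they are high. Over all symbols, 395 were over 20-fold higher in lung, with 867, 102 and 78 at a floor of 0.01, a floor of 1 and a pseudocount of 1 FPKM, and 284 were over 20-fold lower, with 1256, 51 and 49 there and 459 after rescaling to TPM. Rescaling to TPM moved the median log2 ratio of genes at 1 FPKM or more in both libraries to -0.42 from 0.02, and equal upper quartiles moved it to -0.16. Under these scalings Ifng was at -0.66 and -0.41 in place of -0.23, and Il4 at 1.53 and 1.78 in place of 1.96. For the 8 genes above 0 in either library, 62 of 71 values under an alternative stayed within the counting interval of the gene's ratio, 9 moved beyond it, and 0 of those over 2-fold changed direction. Il13 and Il22, at 0 in both, have no such interval. No paired analysis was possible because each tissue had 1 library. Counts of few reads limit Il2, Csf2 and, by transcript, Il21.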
